A study of Mus musculus with 8 samples.

Results

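The genes described here are 9 inflammatory genes that ATF3 is known or expected to restrain in stimulated myeloid cells: Il6, Il12b, Il23a, Tnf, Osm, Il10, Ptgs2, Nos2 and Ch25h. They were chosen by name, and a probe was taken as theirs when its accession was a RefSeq transcript of the gene. Probes were found for 8 of the 9 genes, with 1 probe for each gene, among 55681 probes on the array. No probe accession matched the transcript listed for Il12b, so Il12b was not analysed here.

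RNA was measured in Ly6G+ neutrophils drawn by magnetic beads from the marrow of tibias and femurs, from C57BL/6-background mice that were either wild type (WT, 4 samples) or labelled ATF3 KO (4 samples). Each sample was hybridised to 1 single-colour array. The allele behind the ATF3 KO label, the age of the animals and any pooling are not given in the sources used here, and no label ties the samples to separate mice, so p-values measure the spread between these samples, which may be technical. By the design text the RNA was taken straight after sorting and no stimulus was given, whereas the description field of 7 of the 8 samples mentions culture in methylcellulose with 4-OHT. This conflict was not resolved. All 8 arrays shared 1 slide whose rows each carried 1 genotype, and an effect of the row cannot be told apart from one of genotype. By its title, the study asked about ATF3 and neutrophil migration.

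ATF3 is a transcription factor of the ATF/CREB family. It is made quickly when myeloid cells sense microbial products through Toll-like receptors (TLRs), binds DNA at cyclic AMP response elements (CRE) and AP-1 sites, and is known to dampen the transcription of inflammatory genes that NF-kappaB switches on. Il6 and Il12b are its classic targets in macrophages stimulated through TLR4. Neutrophils store many of their weapons ready-made, but they can also transcribe cytokine genes after stimulation.

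The CRE was searched for in the RefSeq promoter windows of GRCm38.p6, from 250 bases before to 50 bases after each gene's start, since ATF3 can bind these letters. Windows were held for 5 members, namely Il6, Il12b, Tnf, Ptgs2 and Ch25h. The full CRE, TGACGTCA, occurred in the Ch25h window alone among these 5, at 61 to 54 bases before the start, and 1.79% of the 32851 windows of all genes hold it. The 7-base core GACGTCA, part of the full CRE, also occurred in the Il6 window, at 137 to 131 bases before the start, and is in 3.21% of all windows. The shorter CRE letters TGACG, which the longer letters contain, was in 3 of the 5 members and in 20.8% of all windows. In Ptgs2 it lay on the opposite strand, 14 to 18 bases after the start. The AP-1 letters TGACTCA, which read TGAGTCA on the other strand, were found in the Il6 window among the 5 and in 5.2% of all windows. Both strands were searched. A match describes letters in a window, and nothing about binding follows from it.

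The 250 bases before the start are given for Il6 and Ch25h, the members with the CRE core, and for Ptgs2, the member with the largest measured difference among those fitted. Capitals mark the CRE and AP-1 letters. They lie at chr5:30012864-30013113 (plus strand) for Il6, chr19:34475149-34475398 (minus strand) for Ch25h and chr1:150099781-150100030 (plus strand) for Ptgs2, whose stretch holds none of the searched letters.
Il6: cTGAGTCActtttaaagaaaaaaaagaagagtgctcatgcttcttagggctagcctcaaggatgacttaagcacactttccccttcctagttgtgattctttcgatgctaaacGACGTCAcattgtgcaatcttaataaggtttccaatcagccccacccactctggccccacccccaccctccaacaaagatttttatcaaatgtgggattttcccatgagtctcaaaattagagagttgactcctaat
Ch25h: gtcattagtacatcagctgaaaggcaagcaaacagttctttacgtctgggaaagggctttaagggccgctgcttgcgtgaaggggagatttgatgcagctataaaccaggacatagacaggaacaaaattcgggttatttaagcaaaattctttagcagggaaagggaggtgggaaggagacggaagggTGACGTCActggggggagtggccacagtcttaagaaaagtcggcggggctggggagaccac
Ptgs2: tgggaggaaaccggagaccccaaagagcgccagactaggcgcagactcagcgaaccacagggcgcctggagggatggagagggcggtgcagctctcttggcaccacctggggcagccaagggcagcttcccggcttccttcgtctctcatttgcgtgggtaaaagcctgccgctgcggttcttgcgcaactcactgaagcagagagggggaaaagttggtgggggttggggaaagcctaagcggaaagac

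Which of the genes were detected at rest was read from the scanner's own flag for a signal well above background, and a probe with repeated spots counted as above background when at least 50% of its usable spots did. Tnf, Osm and Ptgs2 were above background on all 8 arrays. Nos2 was above background on 7 arrays and Il10 on 1. Il6, Ch25h and Il23a were not above background on any array of either genotype. The lowest probe signal that passed the flag ran from 14.8 to 19.999 across the arrays, and the median of the negative control spots ran from 3.32 to 4.83.

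**Figure D1:**
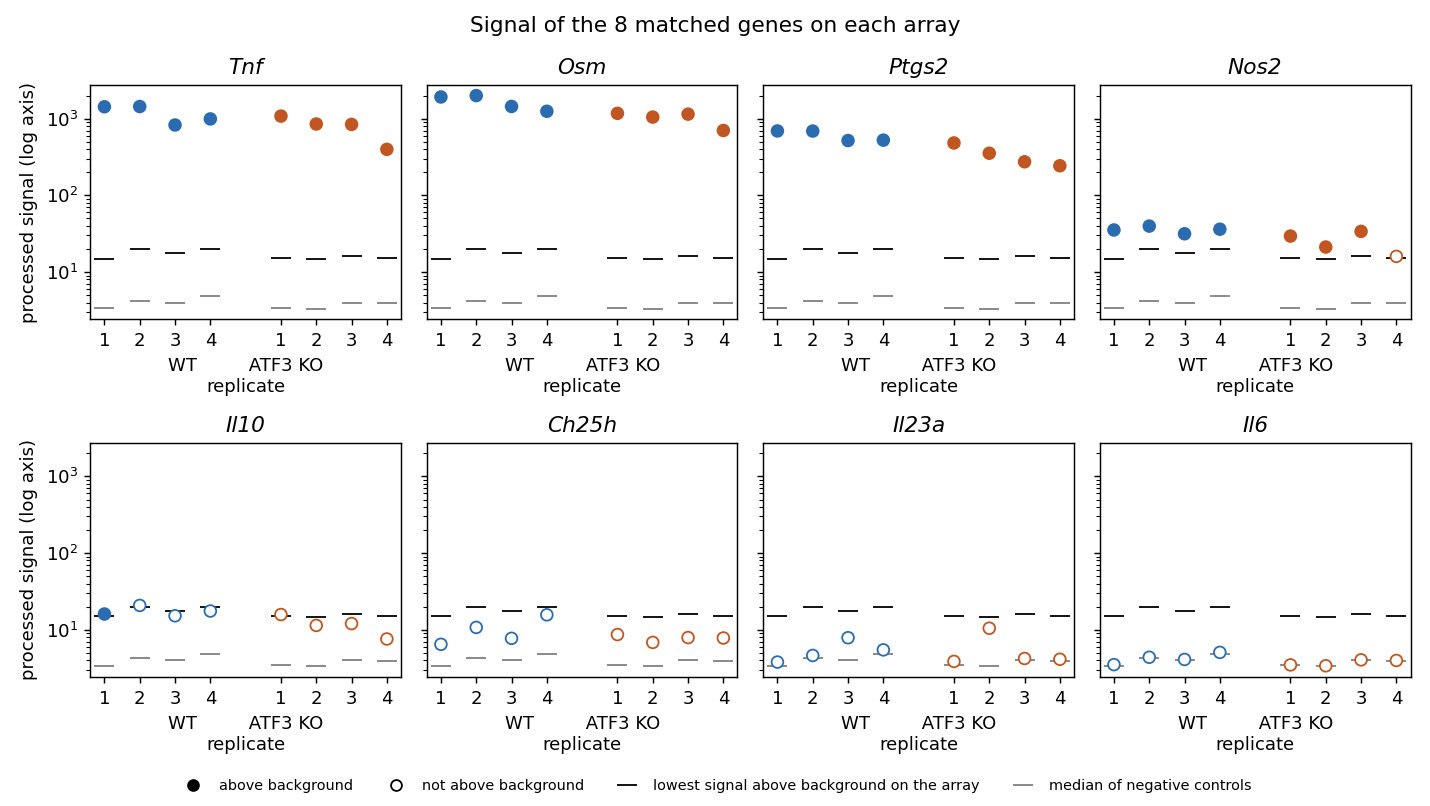
Processed signal (log axis, arbitrary scanner units) of the 8 matched genes on each of the 4 WT and 4 ATF3 KO arrays, with filled points above background, black dashes at the lowest signal above background on that array and grey dashes at the median of its negative controls. Tnf, Osm and Ptgs2 lie far above the black dashes on every array, Nos2 and Il10 near them, and Il6 on the grey dashes.

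Il6, the pleiotropic cytokine of fever and the acute phase, gave signals of 3.50, 4.36, 4.08 and 5.05 in WT replicates 1 to 4 and 3.47, 3.38, 4.03 and 3.96 in ATF3 KO replicates 1 to 4. On every array this was 1.01 to 1.05 times the median of that array's negative controls. Il6 was therefore not well above background in either genotype, and no fold in RNA is given.

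Il23a, the subunit that pairs with the Il12b product to form interleukin-23, gave 3.77, 4.60, 7.84 and 5.45 in WT and 3.85, 10.4, 4.202 and 4.11 in ATF3 KO. The highest values, in WT replicate 3 and ATF3 KO replicate 2, came from the probe's 1 spot and lay under the lowest signal above background. Ch25h, the enzyme that makes an oxysterol from cholesterol, gave 6.43, 10.7, 7.71 and 15.6 in WT and 8.63, 6.82, 7.88 and 7.78 in ATF3 KO. These were 1.90 to 3.23 times the negative control median. The Ch25h probe was thus brighter than the controls on every array without being well above background. Its spot passed the scanner's weaker flag, for a positive and significant signal, on every array.

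Il10, the cytokine that restrains inflammation, sat at the edge of detection. Its probe has 10 spots per array, and the usable spots above background numbered 6 of 10, 4 of 9, 2 of 10 and 1 of 10 in WT replicates 1 to 4, against 2 of 7, 0 of 8, 0 of 10 and 0 of 10 in ATF3 KO replicates 1 to 4. The average signal was 16.011, 20.7, 15.2 and 17.5 in WT and 15.7, 11.4, 11.998 and 7.55 in ATF3 KO. ATF3 KO arrays were thus the dimmer ones in raw signal, apart from ATF3 KO replicate 1, which lay above WT replicate 3. The arrays themselves also differed in brightness. Relative to each array's 75th percentile the Il10 values overlapped, with a log2 mean ± SD over 4 arrays of −3.42 ± 0.26 for WT and −3.64 ± 0.24 for ATF3 KO. No bound on an Il10 fold could be given, since the WT mean was itself under the level that the dim ATF3 KO arrays could have held.

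In a fit with no filter on dim probes, which tested 37057 genes with 1 probe each, the log2 differences (ATF3 KO minus WT) of these dim members had wide intervals. They were 0.21 (95% interval −0.38 to 0.79) for Il6, 0.37 (−0.55 to 1.29) for Il23a, 0.094 (−0.70 to 0.89) for Ch25h and −0.22 (−0.63 to 0.19) for Il10. The limma adjusted p-values over all genes lay between 0.593 and 0.894. These signals are close to background, where a difference in signal understates or misses a difference in RNA, so the intervals apply to the signal alone.

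The 4 other members, Ptgs2, Osm, Tnf and Nos2, were above background on at least 4 arrays and entered the test over 21240 genes. For this test the log2 signal was taken relative to the 75th percentile of the same array, which averaged 187 ± 33.8 over the WT arrays and 141 ± 21.4 over the ATF3 KO arrays (SD over 4 arrays; exact two-sided permutation p = 0.0857), so the ATF3 KO arrays tended to be dimmer before scaling. Scaled differences over all genes still had a median of −0.11, and members' differences relative to that median are given beside the main values. Over all genes, 95 (0.447%) passed limma's adjusted p under 0.05, with 78 (0.367%) higher and 17 (0.08%) lower in ATF3 KO. Of the 4 members tested, 0 passed, and 2, Ptgs2 and Osm, had an unadjusted p under 0.05, both lower in ATF3 KO. Among all genes tested, 23.9% had an unadjusted p under 0.05, and 14.6% had one with the lower value in ATF3 KO. All 4 measured differences were below 0, as were those of 65.6% of all genes.

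Ptgs2, the inducible cyclooxygenase that starts prostaglandin synthesis, gave raw signals of 694, 692, 521 and 527 in WT replicates 1 to 4 and 484, 355, 275 and 244 in ATF3 KO replicates 1 to 4. Relative to the 75th percentile, the log2 values were 1.69, 1.68, 1.66 and 1.80 in WT and 1.59, 1.21, 0.99 and 1.11 in ATF3 KO. The groups did not overlap on either scale, and ATF3 KO replicate 1 lay nearest to WT. Every ATF3 KO array lay below every WT array for 11% of all genes tested.

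The log2 difference of Ptgs2 was −0.48 (SE 0.13, 95% interval −0.79 to −0.18), a signal 1.40 times higher in WT, with limma adjusted p = 0.123 over all genes. The two-sided exact permutation p was 0.0286, the smallest that 4 against 4 arrays can give. Relative to the median of all genes the difference was −0.38, and it ran from −0.49 to −0.27 over 21 alternatives. Under those alternatives the adjusted p ran from 0.0401 to 0.317, and the one that passed left the arrays unscaled.

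Osm, which encodes oncostatin M, an interleukin-6 family cytokine that neutrophils can release, was read by a single spot. Its raw signal was 1928, 2009.9, 1449.6 and 1254 in WT and 1178, 1054, 1150.1 and 704 in ATF3 KO. The scaled log2 values were 3.16, 3.22, 3.14 and 3.06 in WT and 2.87, 2.77, 3.05 and 2.64 in ATF3 KO. The groups just missed overlapping, because ATF3 KO replicate 3, at 3.054, lay next to WT replicate 4, at 3.056. Such a separation, with ATF3 KO below, held for 11% of all genes.

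The log2 difference of Osm was −0.31 (SE 0.11, 95% interval −0.55 to −0.062), with limma adjusted p = 0.159 over all genes and a two-sided exact permutation p of 0.0286, again the smallest possible. Relative to all genes it was −0.20. Its size depended on the scaling. With the deposited log2 table it was −0.12 (95% interval −0.27 to 0.032) and with quantile normalization −0.15 (−0.31 to 0.0035).

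Tnf, the cytokine at the head of many inflammatory cascades, gave raw signals of 1436, 1447, 831 and 997 in WT and 1085, 856, 846 and 399 in ATF3 KO. On the scaled log2 axis the values were 2.74, 2.75, 2.34 and 2.73 in WT and 2.76, 2.47, 2.61 and 1.83 in ATF3 KO. The groups overlapped: ATF3 KO replicate 1 was the highest of all 8 arrays, ATF3 KO replicate 4 the lowest, and WT replicate 3 stood below the other WT arrays.

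The log2 difference of Tnf was −0.22 (SE 0.20, 95% interval −0.67 to 0.23; limma adjusted p = 0.474; exact permutation p = 0.543). Relative to the median of all genes it was −0.11. Without ATF3 KO replicate 4 the difference was −0.023 (95% interval −0.33 to 0.28), and relative to all genes it then lay above 0, at 0.062. The full interval spans lower and slightly higher levels of Tnf in ATF3 KO.

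Nos2, the inducible nitric oxide synthase, was dim but mostly detected, with raw signals of 35.4, 39.8, 31.6 and 36.2 in WT and 29.5, 21.2, 33.9 and 15.995 in ATF3 KO. All 4 WT arrays and 3 of 4 ATF3 KO arrays were above background, of which ATF3 KO replicate 2 passed with 1 of its 2 spots. The SD of the log2 signal between the 2 spots of 1 array ran from 0.012 to 0.38. The scaled values were −2.60, −2.44, −2.38 and −2.06 in WT and −2.45, −2.86, −2.03 and −2.82 in ATF3 KO, and the groups overlapped. The log2 difference was −0.17 (SE 0.20, 95% interval −0.61 to 0.27; limma adjusted p = 0.581; exact permutation p = 0.486). Relative to the median of all genes the difference was −0.059, and it ran from −0.23 to 0.12 over 20 alternatives. With normexp background correction the log2 difference itself was 0.066, so its direction was not fixed.

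**Figure D2:**
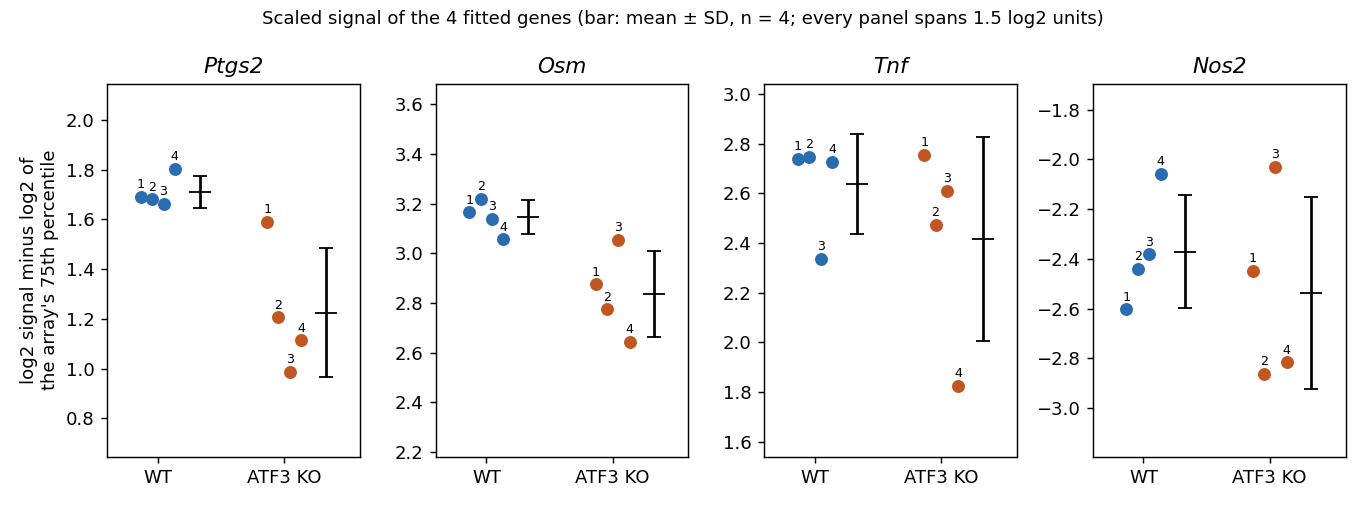
Log2 signal relative to the 75th percentile of the array for the 4 fitted genes, with replicate numbers beside the points and bars at the mean ± SD (n = 4 per genotype). Ptgs2 and Osm have every ATF3 KO array below every WT array, as for 11% of all genes, and Tnf and Nos2 overlap.

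Exact permutation tests were run for these 4 genes, and their p-values are unadjusted. Every value is limited in precision by the 4 arrays per genotype. Among the 4, the SD between ATF3 KO arrays was larger than between WT arrays: 0.26 against 0.065 for Ptgs2, 0.17 against 0.068 for Osm, 0.41 against 0.20 for Tnf and 0.39 against 0.23 for Nos2, with no test of these differences.

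The repeated spots give the measurement error within an array. Ptgs2 and Tnf are read by 10 spots each, and the SD of their log2 signal between spots of 1 array ran from 0.027 to 0.088 for Ptgs2 and from 0.029 to 0.13 for Tnf. An array's value is the mean of its usable spots, and the standard error of that mean was 0.0086 to 0.029 for Ptgs2 and 0.0091 to 0.049 for Tnf. For both genes and in both genotypes, the SD between arrays exceeded the largest of these errors. For Il10, the SD between spots was 0.10 to 0.65 and the standard error of the mean 0.039 to 0.21, against an SD between arrays of 0.26 in WT and 0.24 in ATF3 KO.

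**Figure D3:**
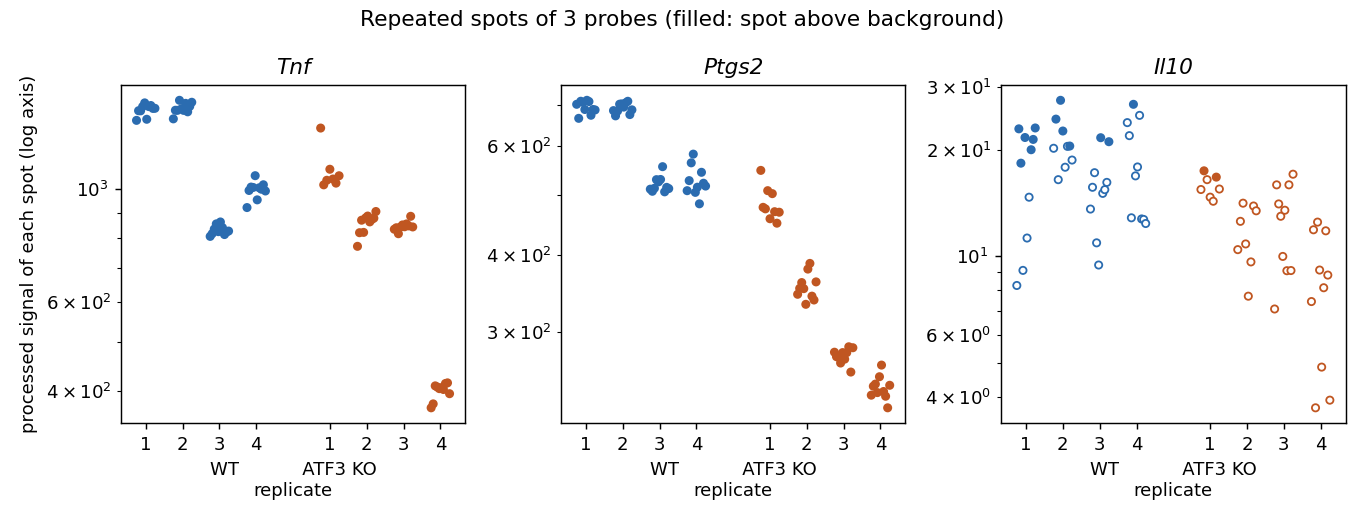
Processed signal (log axis) of each usable spot of the Tnf, Ptgs2 and Il10 probes on every array, filled where the spot was above background. The spots of Tnf and Ptgs2 cluster tightly within an array, with Tnf lowest on ATF3 KO replicate 4, whereas those of Il10 scatter across most of their range within single arrays.

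**Figure D4:**
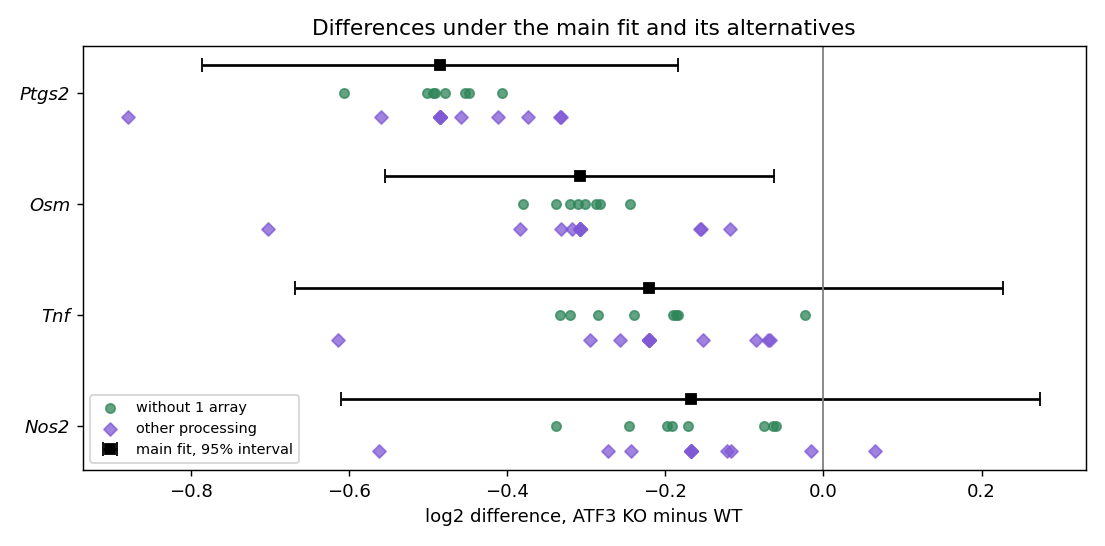
Log2 difference (ATF3 KO minus WT) of the 4 fitted genes in the main fit with its 95% interval, without each array in turn and under other processing. All values of Ptgs2, Osm and Tnf lie below 0, with Ptgs2 from −0.88 to −0.33, and 1 value of Nos2 lies above 0.

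The sorted fraction carried neutrophil transcripts at high levels: all 10 neutrophil markers with a named probe, among them S100a8, S100a9, Camp and Ltf, were above background on all 8 arrays (Ly6g had no named probe). Macrophages also transcribe Ptgs2, Tnf and Osm. All 11 markers of monocytes and macrophages with a named probe were above background on all 8 arrays, and their summed signal relative to the 75th percentile was 264 to 304 in WT and 209 to 271 in ATF3 KO. Their median log2 difference was −0.37, 9 of 11 were below 0, and 1, the macrophage complement receptor gene Vsig4, fell (−0.92, SE 0.15, limma adjusted p = 0.0481). Adgre1, which encodes the macrophage protein F4/80, differed by −0.37 without passing (adjusted p = 0.157). In the same list Ccr2 (0.37) and Cx3cr1 (0.0034) lay above 0, and F13a1 (−0.043) and Csf1r (−0.16) below it, with none of these passing. After scaling, the neutrophil markers had a median of 0.26 and a summed level of 8676 to 10992 in WT and 10632 to 12912 in ATF3 KO, with none called. Among them Mmp9 (−0.27) and Cxcr2 (−0.091) lay below 0, Mmp8 (0.0093) close to it, and the others above it. Before scaling, the signals of S100a8, S100a9, Camp and Csf3r overlapped between genotypes. Raw S100a9 ran from 274548 to 323104 in WT and from 289023 to 304064 in ATF3 KO. The part of these marker values in the values of Ptgs2 and Osm was not tested, and in sorted bulk RNA fewer cells of a type and less RNA per cell cannot be told apart.

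Summed levels were also taken for markers of other possible cell types, with no test of the sums. Those of 9 B lineage markers ran from 53.2 to 77.2 in WT and from 106 to 120 in ATF3 KO, with a median log2 difference of 0.56, 9 of 9 above background on all arrays and 0 called. Jchain had the largest difference of that list (1.81, limma adjusted p = 0.0669), with a mean scaled log2 signal of 3.69 in WT and 5.50 in ATF3 KO. Sums of 8 dendritic cell markers ran from 342 to 462 and from 471 to 706, and came mainly from the Siglech probe (scaled log2 signal 8.55 in WT). Within that list Itgax (−0.51) and Zbtb46 (−0.45) lay below 0 and the other 5 tested above it, 0 were called, and Xcr1 was not above background on any array. The sums of 8 T and NK cell markers overlapped, at 23.2 to 27.1 and 17.0 to 24.0. All 5 tested genes of that list were below 0 (median −0.31), and 0 were called. Ncr1 and Klrb1c were not above background on any array. For 5 mast cell and basophil markers the sums overlapped as well, at 1.08 to 1.42 and 1.04 to 1.48. Ms4a2, of this last list, was not above background on any array. In that list 3 of 4 tested genes were below 0 (median −0.11), and the fourth, Gata2, rose (0.75, limma adjusted p = 0.0493). The adjusted p-values of Gata2 and Vsig4 lay just under 0.05, and these calls were not followed under the alternatives. The part of these other cell types in the members' values was not tested either.

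The factors that act on these genes were measured beside them. The probe for Atf3 itself gave 348, 382, 276 and 237 in WT and 465, 308, 368 and 228 in ATF3 KO, and after scaling it differed by 0.51 in log2 (SE 0.14, limma adjusted p = 0.121), with every ATF3 KO array above every WT array, as for 4.13% of all genes. Where this probe sits relative to the deletion is not given here, so it does not check the genotype labels. Of 25 transcription factors and RNA regulators listed, 23 were tested and 0 passed in either direction. Their median log2 difference was −0.13, against −0.11 for all genes, and 20 of 23 were below 0. Fos (−0.50, SE 0.14, adjusted p = 0.121) and Junb (−0.43, SE 0.15, adjusted p = 0.156), partners in AP-1, had the smallest p-values after Atf3. Hdac1, a histone deacetylase that ATF3 is known to recruit, differed by −0.24 (adjusted p = 0.202).

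Receptors for the products of these genes gave 12 tested of 16 listed, of which 0 passed. Their median log2 difference was −0.15. Ptger4, a receptor for the prostaglandin E that Ptgs2 activity feeds, differed by −0.33 (SE 0.11, limma adjusted p = 0.151). Its ATF3 KO arrays all lay below every WT array, as for 11% of all genes. Tnfrsf1b, a receptor for TNF, differed by −0.30 (adjusted p = 0.187), Il10ra by −0.20 (adjusted p = 0.236), and Ptger2, another prostaglandin E receptor, by −0.23 (adjusted p = 0.23). Il23r was not above background on any array.

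Among 19 subunits and enzymes that act with the members, 16 were tested, 0 passed, and the median log2 difference was −0.13. The smallest p-values belonged to Hpgd, which breaks prostaglandins down (−0.45, SE 0.12, limma adjusted p = 0.114), and Pla2g4a, the phospholipase that releases the substrate of Ptgs2 (−0.34, SE 0.13, adjusted p = 0.172). Asl, of the arginine pathway, differed by −0.38 (adjusted p = 0.191), and Hsd3b7, of oxysterol metabolism, by −0.20 (adjusted p = 0.237). Il12a, which encodes the partner of the Il12b product in interleukin-12, was not above background on any array, nor were Arg1 and Cyp7b1.

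Other genes that TLR signals induce served as a further comparison. Of 22 listed, 16 were tested and 0 passed, with a median log2 difference of −0.075. Ccl4 and Ccl3, chemokines that draw in leukocytes, differed by −0.64 (SE 0.17) and −0.57 (SE 0.15), each with limma adjusted p = 0.121. For both, every ATF3 KO array lay below every WT array, as for 11% of all genes. Tnfaip3, an inhibitor of NF-kappaB signalling, differed by −0.18 (adjusted p = 0.353), and Marco by −0.26 (adjusted p = 0.375). Il1a, Cxcl1, Csf2, Csf3, Ifnb1 and Saa3 were not above background on any array, like Il6 and Il23a.

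Across the 4 lists, 67 of 82 genes were tested and 0 passed with limma. At an unadjusted p under 0.05 there were 11, of which 10 were lower and 1, Atf3, was higher, beside 14.6% lower and 9.38% higher among all genes. Their median of −0.13 lay near that of all genes, and the 4 fitted members had a median of −0.26.

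**Figure D5:**
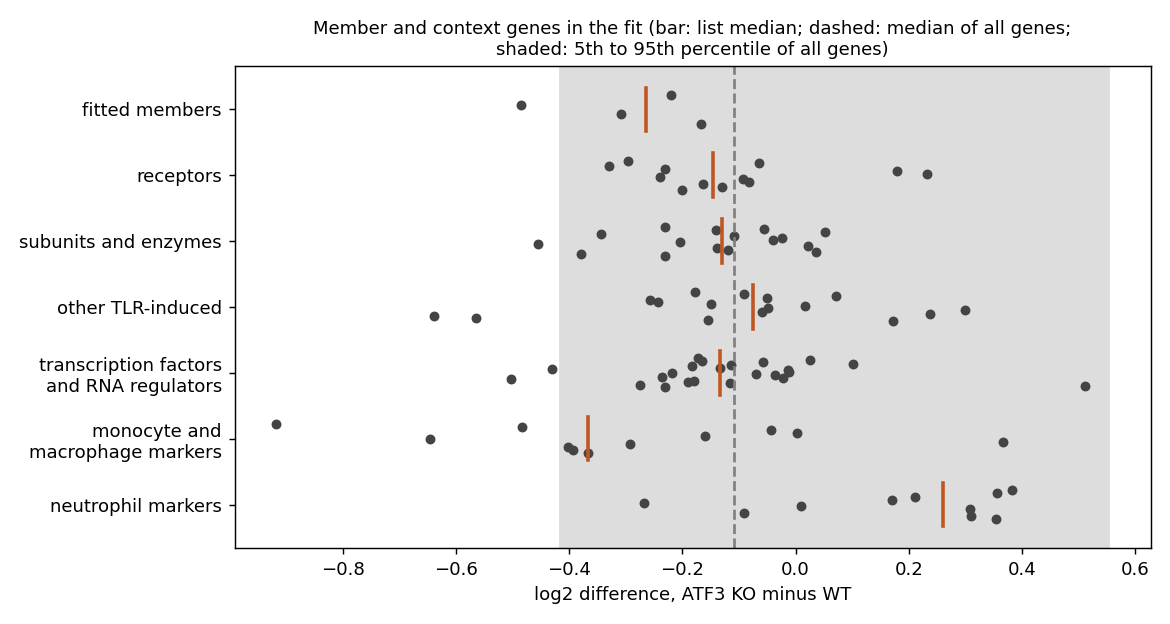
Log2 difference (ATF3 KO minus WT) of the 4 fitted members, the 4 lists of related genes and 2 marker lists, with orange bars at list medians, a dashed line at the median of all genes (−0.11) and shading from the 5th to the 95th percentile of all genes (−0.42 to 0.55). Ptgs2, at −0.48, is the member outside the shading, and the monocyte and macrophage markers have the lowest median of the lists shown, −0.37.

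The genes whose pattern over the 8 arrays was most like that of each member above background throughout were found by Pearson's r among 11717 genes with a symbol. They are descriptions of 8 points that share arrays and the genotype split. For Ptgs2 they were Fam102b (r = 0.986), Tkfc (0.985) and R3hcc1 (0.984), for Osm Uqcrc2 (0.996), Anapc4 (0.996) and Fbxw5 (0.991), and for Tnf Gapvd1 (0.994), Reps1 (0.988) and Kctd13 (0.987), all values being r over 8 arrays. For R3hcc1 the likeness to Ptgs2 did not hold within WT, where r was −0.36 over 4 arrays.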

How the data were processed

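RNA of 4 WT and 4 ATF3 KO samples was hybridised to single-colour Agilent arrays. The deposited scanner files hold spot intensity, which the authors quantified with Agilent Feature Extraction 10.9.1.1 per the file headers (10.10 per the submitters' processing notes) and which is background-subtracted within each array. The deposited log2 table, with medians from 6.13 to 6.15, correlated best with each array's own log2 median signal (r from 0.998 to 1.00 across probes). Its scale, centring and direction are not stated, and it served as an alternative.

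Control and outlier spots were left out and log2 signals of a probe's spots averaged. Values were taken relative to the array's 75th percentile, and probes above background on at least 4 of 8 arrays (27928) were kept, the brightest probe standing for each gene. The test was limma 3.58.1 (R 4.3.3) with Benjamini-Hochberg adjustment over 21240 genes. Symbols came from RefSeq transcripts without versions (GRCm38.p6), which named 27235 of 55681 probes. The headers name another build, so no array coordinate was used.

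The members and lists were chosen with earlier results of these data known. Named were all members, Atf3, called genes and up to 4 genes of smallest p per list, and the 3 genes most like each member on all arrays. Genes named beside these, such as the marker genes and the context genes listed as not above background, were chosen after their values were seen. On simulated data of 21240 genes for ATF3 KO against WT, the recovered share was 40% for a 1.5-fold change, 70% for a 2-fold, 100% for a 4-fold and 96% for an 8-fold one, with 7 false among 160 calls. No arrays were duplicates: the smallest root mean square log2 difference was 0.282 within WT and 0.401 within ATF3 KO. The alternatives were normexp on the median signal (the files have no mean signal), other scalings, filters and variance models, a block on the replicate number, the deposited table, and leaving out each array. Leaving the arrays unscaled, counting any spot above background, and running the alternatives for the context genes and Atf3 were added after seeing the data.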

Additional observations from a re-analysis of the deposited data

Results flagged for a closer look

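Tnf in WT was the 1 value, among 22 sets of 4 arrays examined (the 8 matched genes, Atf3 and 2 array measures in each genotype), in which a single array stood apart from the other 3. WT replicate 3 had a log2 value of 2.34 beside 2.73 to 2.75 in the others, and this gap made up 0.95 of the range of the group, above Dixon's critical value for 4 samples. Chance flags about 1 in 20 such sets. The 10 Tnf spots of that array all lay between 807 and 862, so the low value was shared by its spots. Without that array the Tnf difference was −0.32 (limma adjusted p = 0.345).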

How the results depend on the processing

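Of the 4 fitted genes, Ptgs2, Osm and Tnf kept a negative difference under all 21 alternatives and Nos2 under 19 of 20, reversing to 0.066 with normexp. The count of members called was 0 under 20 of 21 alternatives and 1 with unscaled arrays (Ptgs2, limma adjusted p = 0.0401), an alternative added after seeing the data. Members above background on all 8 arrays numbered 3, and 3 to 4 without 1 array. With the scanner's weaker flag for a positive and significant signal they numbered 6, with Nos2, Il10 and Ch25h added. Leaving out 1 array moved the differences from −0.61 to −0.41 for Ptgs2, −0.38 to −0.24 for Osm, −0.33 to −0.023 for Tnf and −0.34 to −0.060 for Nos2. Genes called over the whole array were 95 (82.1% higher) and became 253 with normexp (62.8% higher), 31 with quantile normalization (71.0%), 217 with median scaling, 44 with the percentile over detected probes, 42 with a filter on 2 arrays, 10 with no filter, 58 with every probe tested, 192 with trend and robust variances, 148 with array weights, 149 with the deposited table and 1337 with unscaled arrays (8.90% higher). They ran from 5 to 226 without 1 array: among WT arrays, 5 when replicate 1 or 3 was left out, 32 for replicate 2 and 54 for replicate 4, and among ATF3 KO arrays 17 for replicate 2, 226 for replicate 3 and 28 for replicate 4. Context genes called were 2 with normexp (Ccl4 and Fos), 1 with the deposited table (Atf3), 5 with unscaled arrays (Ccl3, Ccl4, Fos, Hpgd and Junb), and 0 to 1 without 1 array (Ccl3 without ATF3 KO replicate 1). The cause was not tested. With the replicate number as a block, 72 genes and 0 members passed. Same-numbered samples did not deviate together (r from −0.27 to 0.19, and 2 of 8 samples correlated best with their own number), so the numbers were not taken as a pairing. Genes near background are limited by signal over background, and the others by the number of arrays.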
